A study of Homo sapiens with 6 samples.

Results

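The clustered protocadherins are cell-surface adhesion genes that lie side by side on human chromosome 5, in the alpha, beta and gamma subclusters. Members were taken by symbol, as every row of the count table named PCDHA, PCDHAC, PCDHB, PCDHGA, PCDHGB or PCDHGC followed by a number. This gave 54 of the 58735 features, 16 in the alpha, 16 in the beta and 22 in the gamma subcluster. Of these, 53 are annotated as protein coding, and PCDHA14 is annotated as a pseudogene. The gamma subcluster holds 12 genes of the A type, 7 of the B type and 3 of the c-type.

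The RNA-seq libraries came from BE(2)-C, a human neuroblastoma cell line. The series set cells short of ACSS2, the nuclear and cytosolic enzyme that makes acetyl-CoA from acetate, against control cells. The NS group (n = 3 libraries, genotype tag Wildtype) carried a lentiviral non-silencing hairpin, and the shACSS2 group (n = 3 libraries, genotype tag ACSS2 deficiency) carried a lentiviral hairpin against ACSS2. Both groups were selected with puromycin as stable lines and grown in DMEM with calf serum. The sample titles write siACSS2 for the knockdown, and the treatment text names shNgBR once for the established line. Nothing in the labels ties the libraries of a group to separate cultures. A p-value here therefore reflects only how far these particular libraries spread, and that spread may be technical.

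Each clustered protocadherin gene has its own promoter and its own large first exon, which encodes the whole extracellular cadherin-repeat region. In the alpha and gamma subclusters that exon is spliced to small constant exons shared by the whole subcluster, whereas beta genes lack a shared constant region. Neurons typically use only some of the promoters, through CTCF, cohesin, DNA methylation and distant enhancers, and the resulting set of proteins gives each neuron a surface identity used in self-avoidance. The c-type genes at the end of the alpha and gamma subclusters are known for wider and less random use than the others.

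By the GENCODE v29 annotation (GRCh38, chromosome 5, plus strand), the gamma members share constant exons of 59, 89 and 2033 bases, held by 22, 22 and 21 of the 22 genes. The alpha members share exons of 59, 89 and 2718 bases, held by 15, 15 and 14 of the 16 genes. A read that lies wholly within such an exon cannot be tied to a single gene. PCDHGA7 and PCDHGB4, whose annotation includes the constant exons, had 0 counts in all 6 libraries while their neighbours had counts. The reads of the constant exons were therefore not credited to every gene of the subcluster. The sources used here do not state how such reads were counted, so each value below may leave out part of a gene's transcript.

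Most of these promoters carry a conserved element with CGCT at its core that is bound by CTCF, and some c-type genes are known to lack it. The search used the letters GNCGCT, and a match is not by itself a binding site. RefSeq promoter windows (GRCh38.p14, 250 bases before to 50 after the start) were found for 47 of the 54 members, and both strands were searched. GNCGCT was in 45 of the 47 windows and in 44.0% of all 35116 windows. Longer forms were rarer and differed between subclusters. ATGTCGCT was in 9 of 11 alternate alpha windows and 0 of the other members' windows, against 0.234% of all windows. GGTGGCGCT was in 13 of 14 beta windows and 0 of the other members' windows, against 0.501% of all windows. GNCGCTGT was in 10 of 11 gammaA, 5 of 7 gammaB and 2 of 4 c-type windows, against 4.35% of all windows. It was also in 5 of 11 alternate alpha windows and 1 of 14 beta windows, and it can overlap the alpha form. The windows below, all on the plus strand, set the 4 most counted gamma genes beside 2 gamma genes with no counts and the most counted alpha and beta genes. Capitals mark the motif.
PCDHGC3, chr5:141475883-141475912: ggactctgtgtGCCGCTGTcggccaatgaa
PCDHGC4, chr5:141484955-141484984: tgagcccgggaGCCGCTGTctgccaatcgg
PCDHGA11, chr5:141420974-141421003: tgggctctaggcGCCGCTgctcaccaatca
PCDHGB7, chr5:141417586-141417615: agcctctgggcGCCGCCGTcggccagtgca
PCDHGA7 (0 counts), chr5:141382652-141382681: ggactcacagcGCCGCTGTtcaccaaccag
PCDHGB4 (0 counts), chr5:141387620-141387649: tgactctgggcGCCGCTGTtggccaaagtg
PCDHA2, chr5:140794782-140794811: ttagccacatgATGTCGCTgtccaccatag
PCDHB2, chr5:141094545-141094574: agagacgcggGGTGGCGCTgcagccttaga

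The motif began 72 bases before the start site in PCDHGC3, 64 in PCDHGC4, 65 in PCDHGA11 and 80 in PCDHGB7. PCDHGA11 held only the short form GNCGCT. PCDHGB7 held neither of these forms and is shown with the looser GNCGCNGT, which 15.5% of all windows hold. The windows of PCDHGA7 and PCDHGB4, genes with no counts, held the same GNCGCTGT as those of PCDHGC3 and PCDHGC4. Since 4.35% of all windows held GNCGCTGT, the match in PCDHGC4, a c-type gene, does not show that its promoter has the element. These letters alone thus did not separate counted from uncounted gamma genes in these windows.

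At the other end of the transcript, the gamma genes share a 3′ UTR of 1809 bases in the last constant exon (GENCODE v29, GRCh38). It holds a single ATGCTCAA, 559 bases from the start of the UTR, at chr5:141511718-141511747 on the plus strand with its flanks. Capitals mark the 8 letters.
gamma constant 3′ UTR: gcccaagatcaATGCTCAAgttttggagga

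All 22 gamma genes have an annotated transcript with this site, and each also has at least one without it. The site lies in the shared exon, so the 22 are not separate instances of it. The shares over all genes below use only the longest 3′ UTR of a gene. By that measure PCDHGA2, PCDHGA6, PCDHGB4 and PCDHGB6 lacked the 8 letters. None of the alpha or beta genes held ATGCTCAA in its longest annotated 3′ UTR. The 7-letter parts ATGCTCA or TGCTCAA were in 2 of 16 alpha and 5 of 16 beta genes, against 16.4% of all 18813 genes whose 3′ UTR reached 50 bases, of which 2.49% held the 8 letters. These letters were picked in an earlier analysis from the fold changes of these same libraries, and the values that follow are a description. Among 343 tested genes with ATGCTCAA the median log2 fold change, shACSS2 against NS, was −0.262, and 116 of them (33.8%) fell while 6 rose. Among 10892 tested genes without either 7-letter part the median was 0.047, and 6.77% fell. Which 3′ end the gamma transcripts of these cells carry was not tested.

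Library totals ran from 16617885 to 20831599 counts. ACSS2 itself had 366, 387 and 438 counts in the NS libraries against 75, 84 and 110 in shACSS2, and fell by 1.94 on the log2 scale (SE 0.145, edgeR quasi-likelihood F test with Benjamini-Hochberg adjusted p = 1.95e-06). The second principal component (20.1% of the variance) set shACSS2 replicate 1, at −30.0, apart from shACSS2 replicates 2 and 3, at 23.8 and 14.2. The labelled cell type was only partly borne out by its markers. The adrenergic neuroblastoma markers PHOX2A, TH, SOX11 and TFAP2B had 0 counts in all 6 libraries, and MYCN ran from 0.436 to 2.11 CPM (counts per 1000000 counts of the library, TMM-normalised). The neuronal markers ELAVL3, ELAVL4 and STMN2 had at most 0.112 CPM, whereas NEFL and NEFM, neurofilament genes, had 74.3 CPM or more in every library. All 4 embryonic kidney markers were present, SIX2 at the highest level (30.8 to 40.5 CPM). The Schwann cell markers SOX10 and S100B were at most at 0.249 CPM. Of the 9 pan-neuronal markers 3 were tested, and SYP fell (41.1 ± 1.16 CPM in NS, 22.1 ± 4.4 CPM in shACSS2, SD, n = 3 each, edgeR adjusted p = 0.000511), while MYCN fell and HAND1, GATA2 and ISL1 rose among the adrenergic ones. The summed level of the pan-neuronal markers was 283 to 333 CPM in NS and 191 to 276 in shACSS2, and that of the adrenergic markers 101 to 107 and 121 to 147 CPM. Of 5 fibroblast markers COL1A2 had 0 counts, and COL1A1 was the highest at 20.7 CPM or more in every library. The part of these markers in the protocadherin values was not tested.

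Expression of the locus was concentrated in a few gamma genes. Over all 6 libraries the members had 2839 counts, of which the gamma genes held 2503 (88.2%), the alpha genes 230 (8.1%) and the beta genes 106 (3.73%). The 3 c-type gamma genes alone held 1509 counts (53.2%), the gammaA genes 828 (29.2%) and the gammaB genes 166 (5.85%). Only 5 members reached 50 counts in the 6 libraries together. A further 17 had 10 to 49 counts, 23 had fewer than 10, and 9 had none.

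The 9 members without a count were PCDHA13, PCDHA14, PCDHAC2, PCDHB1, PCDHB3, PCDHB6, PCDHB9, PCDHGA7 and PCDHGB4. A count of 0 over 108405728 counts allows up to 0.0277 CPM (3 counts, counting error only). That limit does not hold for PCDHA14, which has 0 exon bases not shared with another gene. How shared reads were counted is not stated. At the depth of a single library, 3 counts are 0.144 to 0.181 CPM, so most alpha and beta genes stood near or under what one library can show. A count in every library was found for 16 members. Between 32 and 33 members had a count in an NS library, and between 25 and 28 in a shACSS2 library. Over all features, 24268 to 24903 had a count in an NS library and 22960 to 23353 in a shACSS2 library, also without overlap. Totals were lower in shACSS2 on the whole, but shACSS2 replicate 3 had 18133801 counts and NS replicate 1 had 17073662. The part of depth in these differences was not tested.

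**Figure D1:**
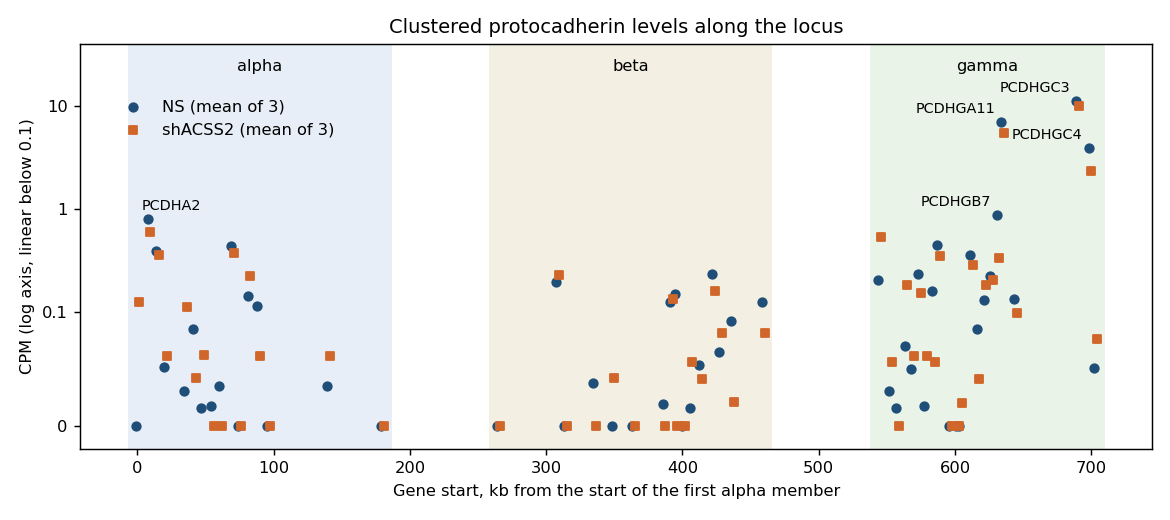
Mean CPM of each of the 54 members (circles NS, squares shACSS2, 3 libraries each) against the start of the gene in kilobases from the first alpha gene, on a log axis that is linear below 0.1 CPM. PCDHGA11, PCDHGC3 and PCDHGC4, at 634.9, 689.8 and 698.9 kb, stand above every other member.

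The highest level per length belonged to PCDHGC3, a c-type gene known to act on Wnt signalling through Axin1. Per kilobase of exon not shared with another gene, it had 3.27 ± 0.442 CPM (SD, n = 6 libraries, range 2.78 to 4.1). PCDHGA11, an alternate gene of the A type, came second with 1.71 ± 0.338 CPM per kilobase (range 1.43 to 2.3), and did not overlap with PCDHGC3. PCDHGC4, the c-type gene known from mouse work for its role in neuron survival, was next with 1.11 ± 0.389 (range 0.501 to 1.67), and overlapped with PCDHGA11. PCDHA2 followed with 0.265 ± 0.127 (range 0.121 to 0.439), below every library of PCDHGC4, and then PCDHGB7 with 0.217 ± 0.127 (range 0.0224 to 0.388). PCDHA2 and PCDHGB7 overlapped with each other, and PCDHGB7 overlapped with PCDHGB5, the sixth, at 0.119 ± 0.0651. None of the other 49 members exceeded a mean of 0.119 CPM per kilobase. On the same scale, non-clustered protocadherins reached higher means, with 13.3 CPM per kilobase for PCDH11X, 8.8 for PCDH10 and 6.07 for PCDH7. PCDH11X can share reads with a near-identical copy.

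The 3 leading genes do not form one promoter type or one stretch. In the order of the 22 annotated gamma genes, PCDHGB7 and PCDHGA11 are the 17th and 18th, and PCDHGC3 and PCDHGC4 the 20th and 21st. PCDHGA12, the 19th, had 12 counts, and PCDHGC5, the last c-type gene, had 7. PCDHGC5 was at 0, 2 and 1 counts in NS and 0, 1 and 3 in shACSS2, so the c-type genes differed greatly among themselves. PCDHAC1 and PCDHAC2, the c-type genes of the alpha subcluster, had 5 and 0 counts.

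The comparison of shACSS2 with NS asked whether the loss of ACSS2 shifted these genes. The gamma genes together stood at 22.4, 26.5 and 27.0 CPM in NS and at 20.7, 19.9 and 20.4 CPM in shACSS2. Every shACSS2 library lay below every NS library, and the group means were 25.3 ± 2.52 and 20.4 ± 0.404 CPM (SD, n = 3 each), a ratio of 0.806. The gammaB genes stood at 1.71, 1.80 and 1.94 CPM in NS and at 1.18, 1.10 and 1.29 in shACSS2, a ratio of 0.657, also without overlap. Most of that gammaB difference lay in PCDHGB7, with means of 0.873 CPM in NS and 0.333 CPM in shACSS2. Among the others, the means of PCDHGB2, PCDHGB3 and PCDHGB5 were lower in shACSS2, and those of PCDHGB1 and PCDHGB6 were higher. The gammaA genes had 8.24 ± 1.34 and 6.81 ± 0.32 CPM and the gamma c-type genes 15.2 ± 1.63 and 12.4 ± 0.614 CPM (SD, n = 3 each). These sums carry no test. In bulk RNA, fewer cells that express a gene and less RNA per cell cannot be told apart.

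Outside the 4 most counted, the gamma genes held only 248 of the 2503 gamma counts. The lower gamma sum could therefore hardly lie elsewhere than in those 4, and this split does not show which genes responded. The other 18 gamma genes, set apart after their values were seen, stood at 1.99, 1.90 and 2.67 CPM in NS and at 1.99, 2.32 and 2.74 in shACSS2, a ratio of 1.07 with overlapping groups. The alpha genes stood at 1.99, 1.80 and 2.63 CPM in NS and at 2.18, 2.14 and 1.90 in shACSS2, and their groups overlapped. The beta genes stood at 1.37, 0.793 and 1.15 CPM in NS and at 1.06, 0.795 and 0.672 in shACSS2, with means of 1.10 ± 0.29 and 0.842 ± 0.197 CPM (SD, n = 3 each) and overlapping groups.

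**Figure D2:**
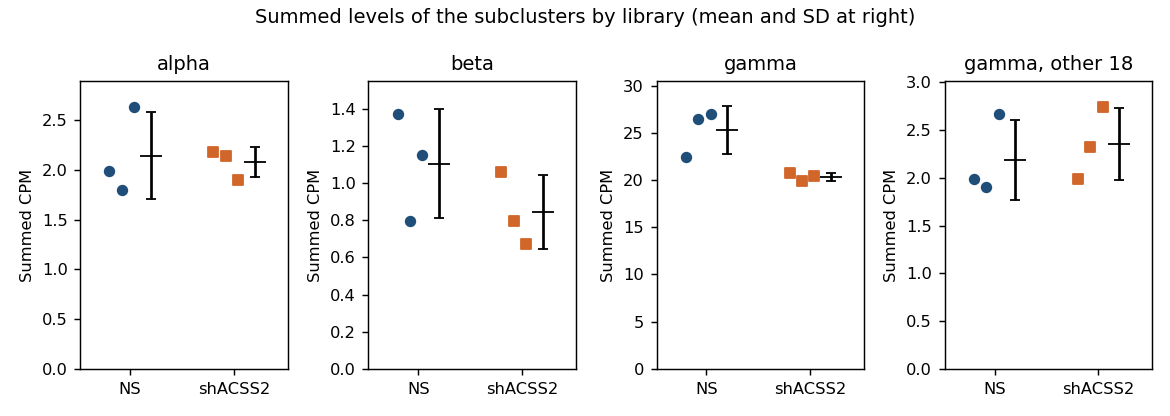
Summed CPM of the alpha, beta and gamma genes and of the 18 gamma genes outside the 4 most counted, with a point for each library (circles NS, squares shACSS2) and the mean ± SD of 3 libraries at the right of each group. Only the gamma panel shows groups without overlap, 22.4 to 27.0 CPM in NS and 19.9 to 20.7 CPM in shACSS2.

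None of the members passed the test. The expression filter kept 6 of the 54 (PCDHGC3, PCDHGA11, PCDHGC4, PCDHGB7, PCDHA2 and PCDHGA6), and of these 0 had an edgeR quasi-likelihood Benjamini-Hochberg adjusted p under 0.05, against 17.1% of all 16210 genes tested. At an unadjusted p under 0.05, edgeR had 3 of the 6, DESeq2 2 and voom 2, and DESeq2 and voom also called 0. Among all genes tested, 32.7% had an unadjusted edgeR p under 0.05. All 6 log2 fold changes were negative, as were 49.7% of those of all genes. Their median was −0.403, beside 0.00245 over all genes and −0.0691 over the 6199 genes with a mean of 0.3 to 12 CPM, of which 10.5% were called. PCDHGC3, PCDHGA11 and PCDHGC4 met the filter in all libraries of either group. PCDHGB7 met it in its NS libraries only, and PCDHA2 and PCDHGA6 in 2 NS libraries and 1 shACSS2 library. The filter thus let in members partly through the group where they were higher, so the shared sign and the median of the 6 are a description and support nothing about the family.

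PCDHGC4 came nearest to the threshold. Its counts were 64, 64 and 101 in the NS libraries and 43, 47 and 25 in the shACSS2 libraries, which is 3.64, 3.38 and 4.66 CPM against 2.68, 2.87 and 1.40 CPM. The groups did not overlap, and shACSS2 replicate 3 was the lowest library. Such lower values without overlap were found in 3 of the 6 tested members and in 18.7% of all genes tested. The log2 fold change was −0.76 (SE 0.271, 95% interval −1.34 to −0.19, edgeR adjusted p = 0.0642). The call changed with the settings. PCDHGC4 passed with library totals as the scaling (adjusted p = 0.0435), with no count filter (0.0373), without shACSS2 replicate 1 (0.0461) and without shACSS2 replicate 2 (0.0498), all in edgeR. Over 15 alternatives its log2 fold change stayed between −0.945 and −0.49, and its adjusted p between 0.0373 and 0.245. PCDHGC4 made up 15.4% ± 2.36 of gamma counts in NS and 11.4% ± 4.01 in shACSS2 (SD, n = 3 each), where replicate 3 had the lowest share, 6.85%.

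PCDHGB7, an alternate gene of the B type, had the largest fitted difference of the 6 tested. Its counts were 19, 16 and 15 in the NS libraries against 1, 8 and 8 in shACSS2, so that all shACSS2 libraries were lower and replicate 1 almost empty. Its level was 0.873 ± 0.197 CPM in NS and 0.333 ± 0.236 CPM in shACSS2 (SD, n = 3 each). The log2 fold change was −1.34 (SE 0.537, 95% interval −2.48 to −0.20, edgeR adjusted p = 0.0946). Without shACSS2 replicate 1, the library that stands apart on the second principal component, it was −0.877.

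PCDHGA11, which lies next to PCDHGB7, had 101, 133 and 181 counts in NS and 90, 85 and 96 in shACSS2. Its level was 5.75, 7.03 and 8.34 CPM in NS and 5.60, 5.20 and 5.38 CPM in shACSS2, without overlap but with the lowest NS library just above the highest shACSS2 library. The log2 fold change was −0.39 (SE 0.182, edgeR unadjusted p = 0.0484, adjusted p = 0.149). Its share of gamma counts was 27.7% ± 2.81 in NS and 26.5% ± 0.498 in shACSS2 (SD, n = 3 each).

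PCDHGC3, the member with the most counts, had the smallest fitted difference of the 6. It had 174, 252 and 230 counts in NS and 167, 148 and 187 in shACSS2. Its level was 9.91, 13.3 and 10.6 CPM in NS and 10.4, 9.05 and 10.5 CPM in shACSS2, and the groups overlapped. The log2 fold change was −0.18 (SE 0.154, 95% interval −0.50 to 0.15, edgeR adjusted p = 0.458), so a change of the size fitted for PCDHGC4 (−0.76) lies outside its interval. The difference between PCDHGC3 and PCDHGC4 itself was not tested. The 3 leading genes together held 87.8% ± 1.7 of gamma counts in NS and 86.8% ± 2.96 in shACSS2 (SD, n = 3 each).

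**Figure D3:**
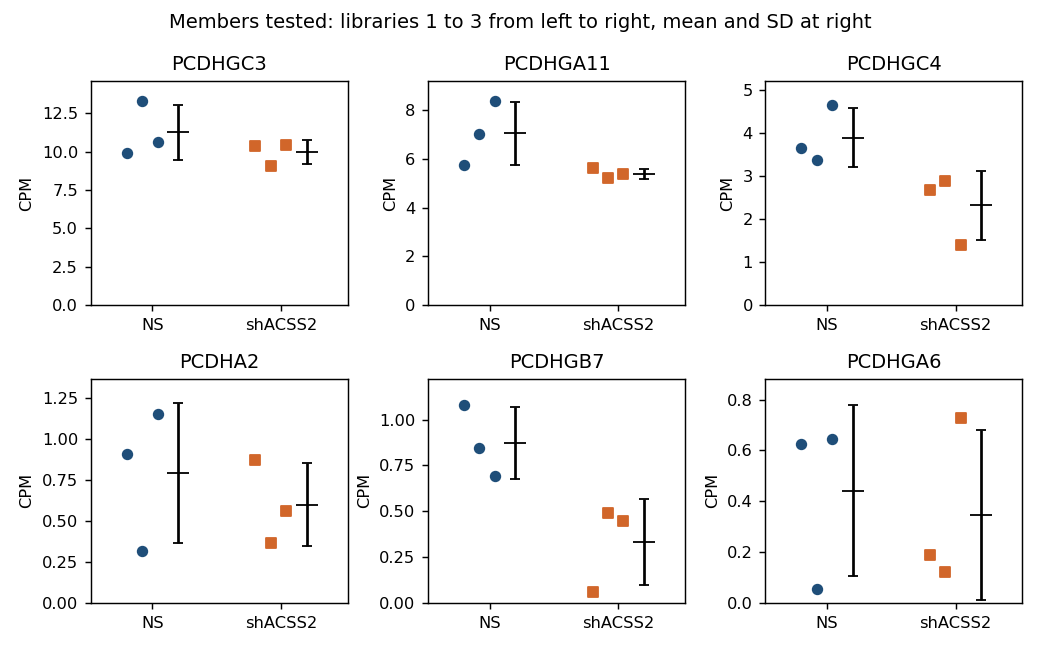
CPM of the 6 members tested, on axes that start at 0, with libraries 1 to 3 from left to right in each group (circles NS, squares shACSS2) and the mean ± SD at the right. The groups do not overlap for PCDHGA11, PCDHGC4 and PCDHGB7, whereas those of PCDHGC3, PCDHA2 and PCDHGA6 do.

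PCDHA2 was the only alpha gene tested. Its counts of 16, 6 and 25 in NS and of 14, 6 and 10 in shACSS2 overlapped, and the log2 fold change was −0.42 (SE 0.507, edgeR adjusted p = 0.612). PCDHGA6 varied most between libraries of a group, with 11, 1 and 14 counts in NS and 3, 2 and 13 in shACSS2. Its log2 fold change was −0.32 (SE 0.736, edgeR adjusted p = 0.803). Neither gene passed the test, and how far depth or the spread between libraries set this was not tested.

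Below the filter, counts were too low for single genes to be read with any precision. PCDHA10 stood at 8, 8 and 9 counts in NS and 3, 6 and 10 in shACSS2, and PCDHA3 at 6, 6 and 11 against 2, 11 and 5. PCDHGB5 stood at 4, 7 and 10 counts against 9, 2 and 3, and PCDHGB2 at 1, 6 and 7 against 1, 1 and 6. All 4 overlapped between the groups. The most counted beta genes, PCDHB2, PCDHB12 and PCDHB8, reached 23, 22 and 14 counts over the 6 libraries, with overlapping groups. PCDHB2 had 1, 3 and 8 counts in the NS libraries against 6, 5 and 0 in shACSS2.

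PCDHGA1, the first gamma gene, was higher in the shACSS2 libraries. Its counts were 4, 2 and 6 in the NS libraries against 6, 9 and 12 in shACSS2, which is 0.203 ± 0.088 and 0.532 ± 0.15 CPM (SD, n = 3 each), without overlap. In the fit with no count filter its log2 fold change was 1.35 (edgeR adjusted p = 0.287). Of the 17 members with 10 to 49 counts, PCDHGA1 and PCDHGB1 were higher without overlap and 0 were lower without overlap. Among all 4793 features with 10 to 49 counts, 4.3% were higher and 9.64% lower without overlap. PCDHGB1 had 1, 2 and 1 counts in NS and 4, 3 and 2 in shACSS2, each within a few counts of 0, and was named after its values were seen.

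The genes that set promoter choice and chromatin at the locus were far better counted, and 9 of the 26 listed fell while 0 rose, beside 9.64% lower and 7.48% higher among all genes tested. Their median log2 fold change was −0.183. The shares among all genes are not matched to the level of these better counted genes. Of the 6199 genes with a mean of 0.3 to 12 CPM, 10.5% were called, against 17.1% of all genes tested. The list was chosen with earlier results of these data known. Omitting NS replicate 1 left 3 that fell, and omitting NS replicate 3 left 4, beside 4.28% and 4.78% of all genes. Omitting shACSS2 replicate 1 gave 12 that fell and 1 that rose, beside 12.5% of all genes lower. Of cohesin, the ring complex that extrudes chromatin loops up to CTCF sites, SMC3 stood at 216, 200 and 227 CPM in NS and at 145, 144 and 154 CPM in shACSS2. All shACSS2 libraries were below all NS libraries, and SMC3 fell by 0.54 on the log2 scale (SE 0.0927, edgeR adjusted p = 0.00141). SMC1A, another core cohesin subunit, fell by 0.38 (edgeR adjusted p = 0.00955), and NIPBL, the cohesin loader, by 0.36 (edgeR adjusted p = 0.0221). RAD21, the cohesin subunit that closes the ring, did not pass (log2 fold change 0.02, edgeR adjusted p = 0.909), and neither did CTCF (−0.17, SE 0.0907, edgeR adjusted p = 0.211).

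Enzymes that act on DNA methylation, a mark known to silence these promoters, were also among the 9. TET2, which oxidises methylated cytosine, had 420, 416 and 498 counts in the NS libraries against 305, 205 and 242 in shACSS2, again without overlap. It fell by 0.61 on the log2 scale (SE 0.148, edgeR adjusted p = 0.0113). The TET2 call was lost in 2 of 15 alternatives and that of TET1 in 1. TET1 fell by 0.46 (SE 0.105, edgeR adjusted p = 0.00816) and TET3 by 0.39 (edgeR adjusted p = 0.0189). The DNA methyltransferase DNMT3B fell by 0.34 (edgeR adjusted p = 0.0281), whereas DNMT1 (−0.04) and DNMT3A (−0.24) did not pass. RCOR1, the corepressor that works with REST, fell by 0.51 (SE 0.104, edgeR adjusted p = 0.00422), and REST itself had −0.08. ATF7IP, a partner of the histone methyltransferase SETDB1, fell by 0.36 (edgeR adjusted p = 0.0333), and SETDB1 had 0.00. The 3′ UTR letters ATGCTCA or TGCTCAA were in 4 of the 9 genes that fell and in 7 of the 26. Among all tested genes with a 3′ UTR, they were in 576 of the 1313 that fell and in 2383 of 13275. The letters were picked from the fold changes of these same libraries, so these shares are a description. Whether the letters had a part in the fall of the regulators was not tested.

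**Figure D4:**
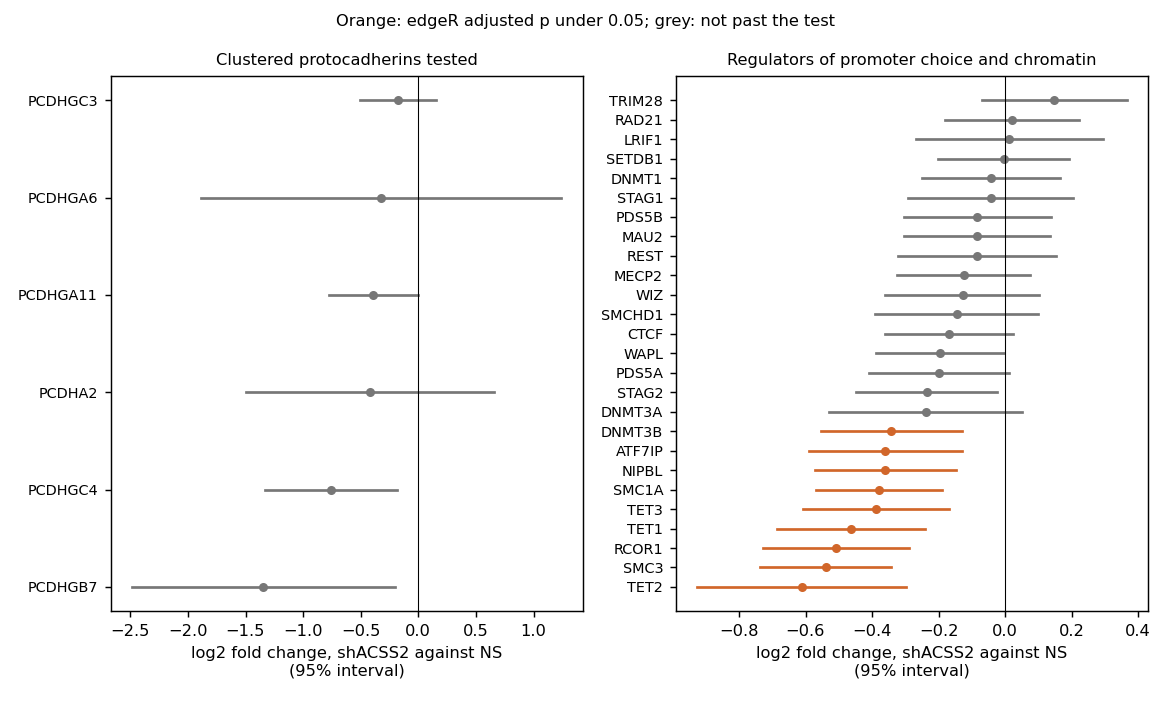
Log2 fold change of shACSS2 against NS with its 95% interval for the 6 clustered protocadherins tested (left) and the 26 listed regulators of promoter choice and chromatin (right), on separate scales. Orange marks an edgeR adjusted p under 0.05, reached by 9 regulators and 0 protocadherins.

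Counts past the test in other lists tied to the family are read beside the 17.1% called among all genes. Of 10 non-clustered protocadherins tested, 0 rose and 1 fell. This was PCDH7, at 88.1, 84.6 and 75.6 CPM in NS and at 70.4, 66.2 and 61.5 CPM in shACSS2 (log2 fold change −0.33, SE 0.101, edgeR adjusted p = 0.0367). That call was lost in 6 of 15 alternatives. Their median log2 fold change was 0.166. Of 15 listed partner and signalling genes, PDCD10, a binding partner of the gamma constant region, rose by 0.44 (SE 0.127, edgeR adjusted p = 0.0265). BRK1, a subunit of the WAVE complex, rose by 0.35 (SE 0.0992, edgeR adjusted p = 0.0253), and PRKCA, a protein kinase C, fell by 0.33 (edgeR adjusted p = 0.039). These calls were lost in 3, 5 and 8 of 15 alternatives. Protocadherins are cleaved by ADAM10 and then by gamma-secretase, and of 7 genes of that machinery 1 rose. PSEN2, a catalytic gamma-secretase subunit, had 26.5 ± 2.24 CPM in NS and 38.3 ± 1.28 CPM in shACSS2 (SD, n = 3 each) and rose by 0.53 on the log2 scale (SE 0.108, edgeR adjusted p = 0.00451), while ADAM10 had 0.04 and did not pass the test.

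Of 13 other genes tested in and around the cluster in 5q31, 0 rose and 2 fell, near the background of 17.1% called among all genes, and the median log2 fold change was 0.00294. TMCO6 fell by 0.52 (SE 0.115, edgeR adjusted p = 0.00668) and FCHSD1 by 0.48 (SE 0.139, edgeR adjusted p = 0.0282), calls lost in 1 and 4 of 15 alternatives. TAF7, which lies between the beta and gamma genes, and DIAPH1 and HDAC3 had log2 fold changes of 0.20, 0.00 and 0.00, none past the test.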

How the data were processed

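The authors deposited one table of raw read counts per gene for the 6 libraries. Per the submitters' processing notes, reads were handled with fastp and HISAT2 2.0.5 on hg19, then featureCounts 1.5.0-p3, and DESeq2 is listed as 4.3.1. The gene identifiers match GENCODE release 29, an annotation of GRCh38, so the build of the alignment is uncertain, and printed coordinates are GENCODE or RefSeq positions found by gene. The sources used here do not state strand, multi-mapping or overlap settings.

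Counts were fitted with edgeR 4.0.16 in R 4.3.3 (TMM factors, the default filter with a minimum count of 10, robust quasi-likelihood fit, group as the only term), with Benjamini-Hochberg adjustment over 16210 genes at 0.05. The fit was tested on simulated data. "Rose" and "fell" mean past this test. CPM were computed with TMM factors. Levels per kilobase use exon bases not shared with another gene. Motifs and 3′ UTRs were read with Python 3.11.15, pandas 2.3.3 and numpy 2.4.6. Pairs of libraries of a group differed by 4.28 to 17.3 in chi-square per degree of freedom, so no pair was merged as a single library. Floors cover counting error only, since without molecular identifiers reads are not independent molecules.

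The members, the 6 companion lists, the marker lists and the tests were chosen with earlier results of these data known. The genes named are the members past the test, the 3 members with the highest mean CPM in each promoter group, and the 3 tested members with the largest change in each direction. Each companion list adds up to 4 genes that passed, those with the largest change among means of 1 CPM or more. Other genes are named as steps of the same complex or as counts of 5 or fewer. The list of cluster pseudogenes had 0 members tested. Some listed genes are not reported here. Alternatives were other scalings, filters, DESeq2 1.42.0, voom of limma 3.58.1, an adjusted p of 0.01, a replicate block and the omission of each library in turn.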

Additional observations from a re-analysis of the deposited data

How the results depend on the processing

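The count of members past the test was 0 and became 1, lower in shACSS2, with library totals, with no count filter and with a replicate block, and ranged from 0 to 1 over the omission of single libraries. The member was PCDHGC4 each time. With the replicate block its log2 fold change was −0.78 (edgeR adjusted p = 0.0472). Same-numbered libraries did not deviate together in every pair (correlations −0.0428, −0.0664 and 0.112), so the numbers were not shown to pair the libraries. The block moved the count of all genes called from 2776 to 2923. That count was 1010 at an adjusted p of 0.01 and ranged from 1018 (without NS replicate 1) to 3931 (without shACSS2 replicate 1) over the omission of single libraries, with 1151 without NS replicate 3. PCDHGA6 turned to a positive log2 fold change without NS replicate 3 (0.0888) and without shACSS2 replicate 2 (0.0722), and ranged from −1.48 to 0.0888 over the omission of single libraries. PCDHGC3, PCDHGA11 and PCDHGC4 were negative in 15 of 15 alternatives, and PCDHGB7 and PCDHA2 in 14 of the 14 that kept them. The log2 ratio of the gamma sum stayed between −0.391 and −0.262 over 8 alternatives, and that of the alpha sum between −0.155 and 0.131. Depth limits the rest, since 32 of the 54 members had fewer than 10 counts in all libraries together.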

Other observations

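Several transcripts of the locus are not coding members. The pseudogene PCDHGB8P, which lies between PCDHGA11 and PCDHGA12, had 5, 5 and 5 counts in the NS libraries against 1, 0 and 1 in shACSS2. Its groups did not overlap, at 0.26 ± 0.0273 and 0.0394 ± 0.0343 CPM (SD, n = 3 each), and the fit with no count filter gave a log2 fold change of −2.51 (edgeR unadjusted p = 0.0493, adjusted p = 0.249), so it did not pass. Among all features with 10 to 49 counts, 9.64% were lower without overlap. PCDHGB8P was chosen from the listed pseudogenes after its values were seen. PCDHB18P had 2, 0 and 0 counts in NS against 1, 5 and 0 in shACSS2, with overlapping groups. PCDHGB8P had 17 counts in all and a sequence close to its neighbours, so its reads can be shared with gammaB genes. The 13 antisense genes annotated in the locus had 0 counts in every library, and of 4 lincRNA genes 1 had counts. Strand and overlap settings are not stated, so the antisense counts of 0 do not show that such transcripts were absent.

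Some members had their counts in few libraries. All 6 counts of PCDHA1 were in shACSS2 replicate 1, the library that stands apart on the second principal component. PCDHB16 had 5, 3 and 0 counts in NS and 0 in each shACSS2 library. Both genes were named after their values were seen.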
